A study of Homo sapiens with 10 samples.

Results

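The enzymes that make serine and pass its carbon to folate were read in MDA-MB-435 melanoma cells by all 10 array probes annotated to 9 genes. The array tables held 24105 usable probes and 16364 genes with a symbol. The genes were PHGDH, PSAT1, PSPH, SHMT1, SHMT2, MTHFD1, MTHFD2, MTHFD1L and ALDH1L2, chosen by their function. They and the gene lists below were chosen with earlier results of these data known, so the shares set beside theirs are descriptions. Each gene had 1 probe except SHMT1, which had 2. RNA of this human melanoma line had been hybridised to 10 Illumina bead arrays, 2 biological duplicates in each of 5 groups. The groups were cells transduced with integrin Beta4 (ITGB4), which stably raises that chain, untreated cells (the wild-type line), and the same line treated with hepatocyte growth factor (HGF), the ligand of the MET receptor, for 1, 6 or 24 h. The sources used here give no HGF dose, no empty-vector control and no statement on whether the ITGB4 cells are 1 clone. The untreated cells are the only control for both treatments. Their labels give no time, so an effect of HGF and one of time in culture cannot be told apart. The question was which of these enzymes changed with HGF over time or with ITGB4.

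Serine is built from the glycolytic intermediate 3-phosphoglycerate, which PHGDH oxidises, PSAT1 transaminates and PSPH dephosphorylates. Serine hydroxymethyltransferase, SHMT1 in the cytosol and SHMT2 in mitochondria, then turns serine into glycine and hands the released carbon to tetrahydrofolate. In mitochondria MTHFD2 and MTHFD1L carry that carbon on to formate and ALDH1L2 can burn it to CO2, while MTHFD1 takes formate up again in the cytosol for nucleotide synthesis. Several of these genes are known targets of ATF4, the transcription factor of the amino acid response.

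All 10 probes were detected (a detection score of 0.99 or more) on all 10 arrays. Their level is given below as the quantile normalised signal, in arbitrary units, in which the detection limit lay at 89.6. PHGDH and SHMT2 stood among the brightest probes of every array (percentiles 98.2 to 99.3 and 97.5 to 98.9), and ALDH1L2 was close to the limit (94.6 to 128). Levels of different probes are not comparable, since probes differ in how well they bind. Between 10226 and 11899 probes were detected per array, and replicates correlated at 0.976 to 0.989 across probes. Of the melanocyte markers on the array 7 of 8 were detected on all arrays, whereas EPCAM, KRT19 and CDH1 of the 7 epithelial markers, COL1A1, COL1A2, COL3A1 and PDGFRB of the 8 stromal ones and CD14, CD3E, CD3D and MS4A1 of the 7 immune ones were detected on none. The other markers of those lists were detected on some or all arrays, with KRT18 (318 to 569), KRT14, DCN, LUM (278 to 688), CD68 and LYZ on all 10, KRT8 and ACTA2 on 9, and KRT5, THY1 and PTPRC on 5. Replicate 1 of the untreated and of the 3 HGF groups had lower detection scores for undetected probes (25th percentile of 4.37e-05 to 0.00182) than the other 6 arrays (0.0383 to 0.17), so the called HGF differences are also given within replicate 1 and within replicate 2.

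For 7 of the 10 probes both arrays at 6 h of HGF were the lowest of all 10 arrays. The share of all probes with that order was not counted, so whether 7 of 10 is unusual cannot be said. At 24 h relative to 6 h 6 of the 10 probes rose and none fell, those of PHGDH, PSAT1, PSPH, SHMT2, MTHFD2 and the brighter probe of SHMT1, by 1.53-fold (SHMT1) to 2.02-fold (MTHFD2). Of all 14018 tested probes 4.24% rose in that comparison, and 8.31% changed in either direction. Both 24 h arrays lay above both 6 h arrays for 9 of 10 member probes, against 22.5% of all probes. The median log2 difference was 0.70 for the members and 0 for all probes. Calls are limma tests with a Benjamini-Hochberg adjusted p under 0.05. In bulk RNA fewer cells of a type and less RNA per cell cannot be told apart.

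**Figure D1:**
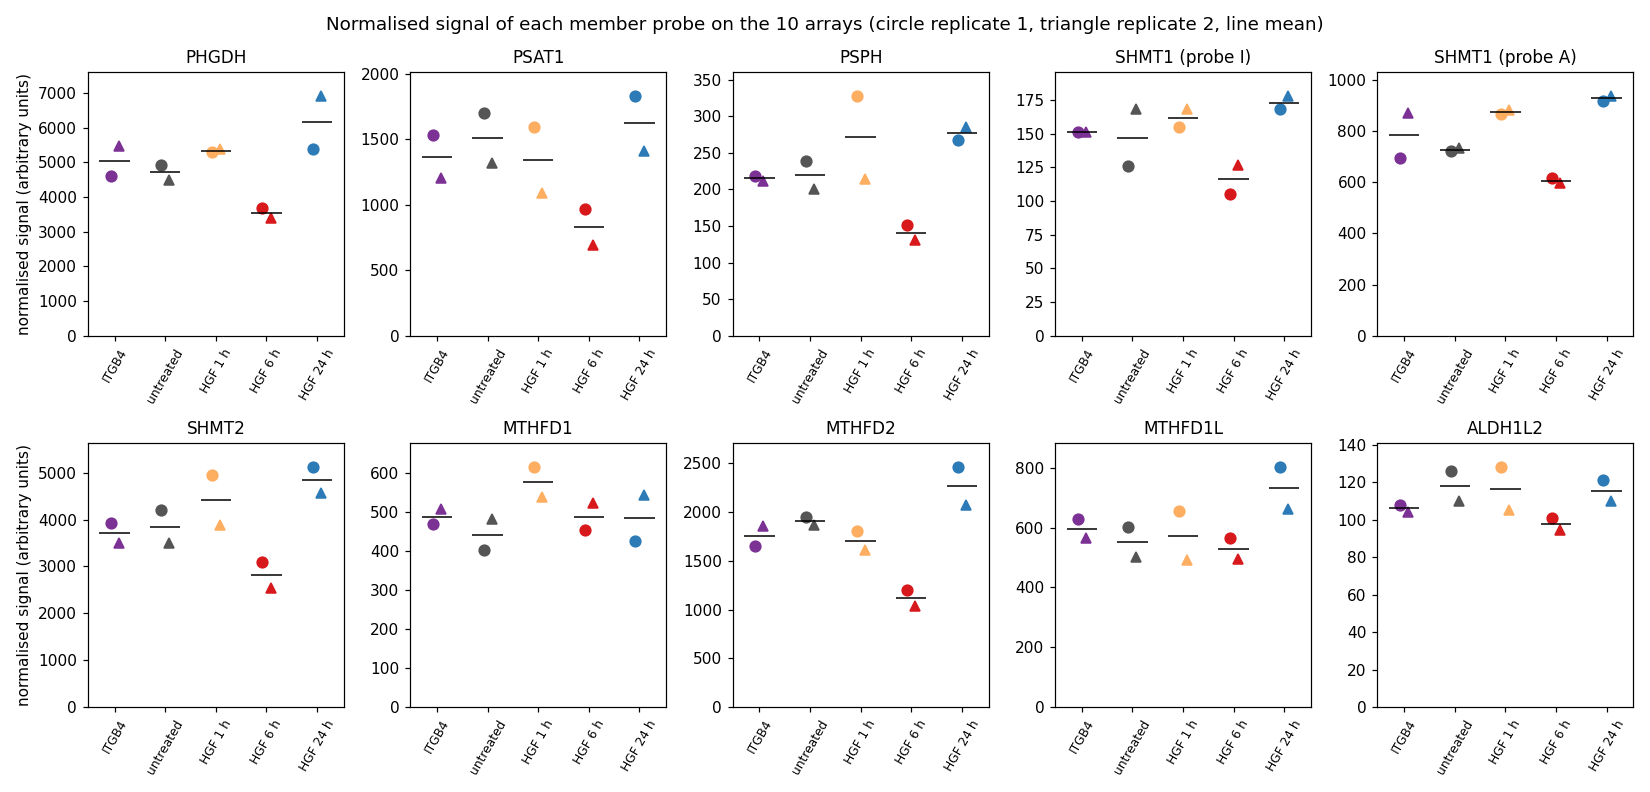
Normalised signal (arbitrary units) of each of the 10 member probes on each of the 10 arrays, in 1 panel per probe, with a circle for replicate 1, a triangle for replicate 2 and a line at the group mean. Each vertical axis starts at 0, and the 6 h arrays are the lowest of the 10 in the panels of PHGDH, PSAT1, PSPH, SHMT2 and MTHFD2 and not in that of MTHFD1.

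The promoters of PSAT1, MTHFD2 and PHGDH, members that rose together at 24 h relative to 6 h, are shown as the 250 bases before the annotated start, 5′ to 3′, with each CCAAT (a box bound by NF-Y, searched on both strands) in capitals. They are from RefSeq on GRCh38.p14.
PSAT1 promoter (chr9:78296875-78297124, plus strand): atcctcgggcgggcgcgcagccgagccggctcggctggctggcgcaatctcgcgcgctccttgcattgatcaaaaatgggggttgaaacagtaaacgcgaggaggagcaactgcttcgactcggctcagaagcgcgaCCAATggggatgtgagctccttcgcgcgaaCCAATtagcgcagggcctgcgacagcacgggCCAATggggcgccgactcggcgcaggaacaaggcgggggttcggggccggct
MTHFD2 promoter (chr2:74198365-74198614, plus strand): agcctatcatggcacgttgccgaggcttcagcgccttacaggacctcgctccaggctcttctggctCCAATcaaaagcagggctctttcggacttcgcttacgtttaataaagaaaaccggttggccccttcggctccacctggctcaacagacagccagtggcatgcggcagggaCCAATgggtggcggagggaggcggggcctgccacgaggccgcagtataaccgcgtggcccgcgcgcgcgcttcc
PHGDH promoter (chr1:119711684-119711933, plus strand): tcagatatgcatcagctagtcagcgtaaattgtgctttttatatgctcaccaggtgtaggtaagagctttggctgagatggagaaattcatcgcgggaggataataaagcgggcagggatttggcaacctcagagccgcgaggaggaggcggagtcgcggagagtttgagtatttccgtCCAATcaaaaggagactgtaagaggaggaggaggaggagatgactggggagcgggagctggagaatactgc
Windows were matched by symbol for 6 of the 9 genes, PHGDH, PSAT1, MTHFD2, MTHFD1L, MTHFD1 and SHMT1, the others being PSPH, SHMT2 and ALDH1L2. Each of the 6 genes had a CCAAT in at least 1 of its 300-base windows. Of all 35116 promoter windows 34.6% held a CCAAT. That share is per window and not per gene, and a gene such as MTHFD1L has several windows, so the counts are not alike. CCAAT was searched for after the sequences had been seen. PSAT1 had 3 copies, 113, 83 and 52 bases before the start, MTHFD2 had 2 copies at 184 and 74 bases, and PHGDH had 1 at 71 bases.

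The other motifs were TGATGNAA, the core of the amino acid response element that ATF4 binds, and CACGTG, the E-box that MYC binds, searched on both strands. TGATGNAA occurred in 3.62% of all windows and among the members in MTHFD1L (chr6:150866357-150866364, plus strand, capitals in the line below). CACGTG occurred in 7.26% of all windows and among the members in MTHFD1L (chr6:150866332-150866337) and MTHFD1 (chr14:64388338-64388343).
MTHFD1L, TGATGNAA: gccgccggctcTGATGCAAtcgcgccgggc
MTHFD1L, CACGTG: acgcccggctcCACGTGcgcagccggcc
MTHFD1, CACGTG: cagtccctaagCACGTGggttgggtt
These matches are letters in a 300-base window and not measured binding.

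Among the serine synthesis enzymes, PHGDH read 4597.5 and 5475.4 in ITGB4 cells, 4921 and 4498.1 in untreated cells, 5290.8 and 5378.7 after 1 h of HGF, 3679.2 and 3400.2 after 6 h and 5392 and 6924.3 after 24 h. The 6 h arrays were the lowest of the 10, and the 24 h arrays overlapped no untreated array. PHGDH was 1.73-fold higher at 24 h than at 6 h (log2 difference 0.79 ± 0.17, SE, adjusted p = 0.014), by 0.55 within replicate 1 and 1.03 within replicate 2. Its level at 6 h differed from untreated by -0.41 (adjusted p = 0.25).

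PSAT1 had signals of 1527.6 and 1195.6 in ITGB4 cells, 1703.7 and 1324 in untreated cells, 1593.8 and 1093.6 after 1 h, 970 and 690.9 after 6 h and 1829.8 and 1408.8 after 24 h. Both 6 h values lay below all other arrays. PSAT1 rose 1.96-fold at 24 h relative to 6 h (0.97 ± 0.24, adjusted p = 0.024), by 0.92 in replicate 1 and 1.03 in replicate 2. The difference of 6 h from untreated, -0.88 ± 0.24, missed the threshold at an adjusted p of 0.079 although the groups did not overlap.

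PSPH gave 219.4 and 211.8 in ITGB4 cells, 238.8 and 200.1 in untreated cells, 327.9 and 214.9 after 1 h, 150.6 and 131.3 after 6 h and 267.6 and 286.2 after 24 h. Its 6 h arrays were the lowest of the 10 and 1 h replicate 1 the highest. PSPH rose 1.97-fold at 24 h relative to 6 h (0.98 ± 0.20, adjusted p = 0.0098), by 0.83 and 1.12 within replicates 1 and 2. It was the single member called at 6 h relative to 1 h, where it fell by 0.92 ± 0.20 (1.89-fold, adjusted p = 0.024), by 1.12 within replicate 1 and by 0.71 within replicate 2. Signals were not background corrected, which can compress the differences of dim probes, and this was not tested. With normexp correction the PSPH rise at 24 h relative to 6 h was 1.38 (adjusted p = 0.025).

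SHMT2, the mitochondrial enzyme, read 3928.6 and 3498.5 in ITGB4 cells, 4208.4 and 3491 in untreated cells, 4957.9 and 3875.2 after 1 h, 3104.4 and 2547.4 after 6 h and 5124.6 and 4556.1 after 24 h. The 6 h arrays were again the lowest. SHMT2 rose 1.72-fold at 24 h relative to 6 h (0.78 ± 0.18, adjusted p = 0.020), by 0.72 and 0.84 within replicates 1 and 2.

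Of the probes for SHMT1, the cytosolic enzyme, the brighter one, whose name carries the suffix A, gave 695.9 and 868.8 in ITGB4 cells, 722.4 and 733.4 in untreated cells, 868.3 and 882.4 after 1 h, 614.8 and 597 after 6 h and 917 and 937.4 after 24 h. It was lowest at 6 h and highest at 24 h, with no overlap between any of the HGF and untreated groups. It rose 1.53-fold at 24 h relative to 6 h (0.61 ± 0.16, adjusted p = 0.031), by 0.58 and 0.65 within replicates 1 and 2. The dimmer probe (105 to 178) gave 0.59 (adjusted p = 0.057) and was not called (0.98 with normexp correction, adjusted p = 0.066). Over the 10 arrays the probes correlated at r = 0.81, but at 0.03 with the group means taken out, which rests on 1 replicate difference per group.

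MTHFD2, the mitochondrial dehydrogenase and cyclohydrolase, had the largest of these rises. It read 1646.3 and 1855.8 in ITGB4 cells, 1949.7 and 1874 in untreated cells, 1804.5 and 1606.2 after 1 h, 1199.8 and 1040.9 after 6 h and 2462 and 2067.7 after 24 h. The 6 h arrays were the lowest and the 24 h arrays the highest of the 10. MTHFD2 rose 2.02-fold at 24 h relative to 6 h (1.01 ± 0.17, adjusted p = 0.0037), by 1.04 and 0.99 within replicates 1 and 2, and ranked 125 among the rises of all probes.

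MTHFD1L, the mitochondrial formate producer, had 627.7 and 563.7 in ITGB4 cells, 602.1 and 502.5 in untreated cells, 653.8 and 491.8 after 1 h, 563.7 and 493.9 after 6 h and 801.9 and 661.2 after 24 h. Its 24 h arrays were the highest, and 6 h overlapped the untreated arrays. The difference of 24 h from 6 h was 0.46 ± 0.19 (adjusted p = 0.16). ALDH1L2, the mitochondrial formyltetrahydrofolate dehydrogenase, ranged from 94.6 to 128 and differed by 0.24 at 24 h relative to 6 h (adjusted p = 0.48).

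MTHFD1, the cytosolic enzyme with 3 activities, stood near 0 at 24 h relative to 6 h, where the other 9 probes had positive differences. Its 6 h arrays were not both the lowest, which also held for MTHFD1L and the dimmer SHMT1 probe. It gave 467.8 and 507.3 in ITGB4 cells, 401.8 and 479.8 in untreated cells, 614.3 and 537.5 after 1 h, 451.9 and 522.2 after 6 h and 426.1 and 543.2 after 24 h. Its highest array was 1 h replicate 1 and the groups at 6 and 24 h overlapped. The difference of 24 h from 6 h was -0.01 ± 0.18, with a 95% interval of -0.40 to 0.37. Over the 10 arrays MTHFD1 correlated with the other 9 probes at r = -0.27 to 0.36, against 0.27 to 0.96 for the 36 pairs without it. These are descriptions over arrays that share groups. With the group means taken out, r ran from -0.51 to 0.62 for pairs with MTHFD1 and from -0.82 to 0.99 for pairs without it. Each of these values rests on 1 replicate difference per group.

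**Figure D2:**
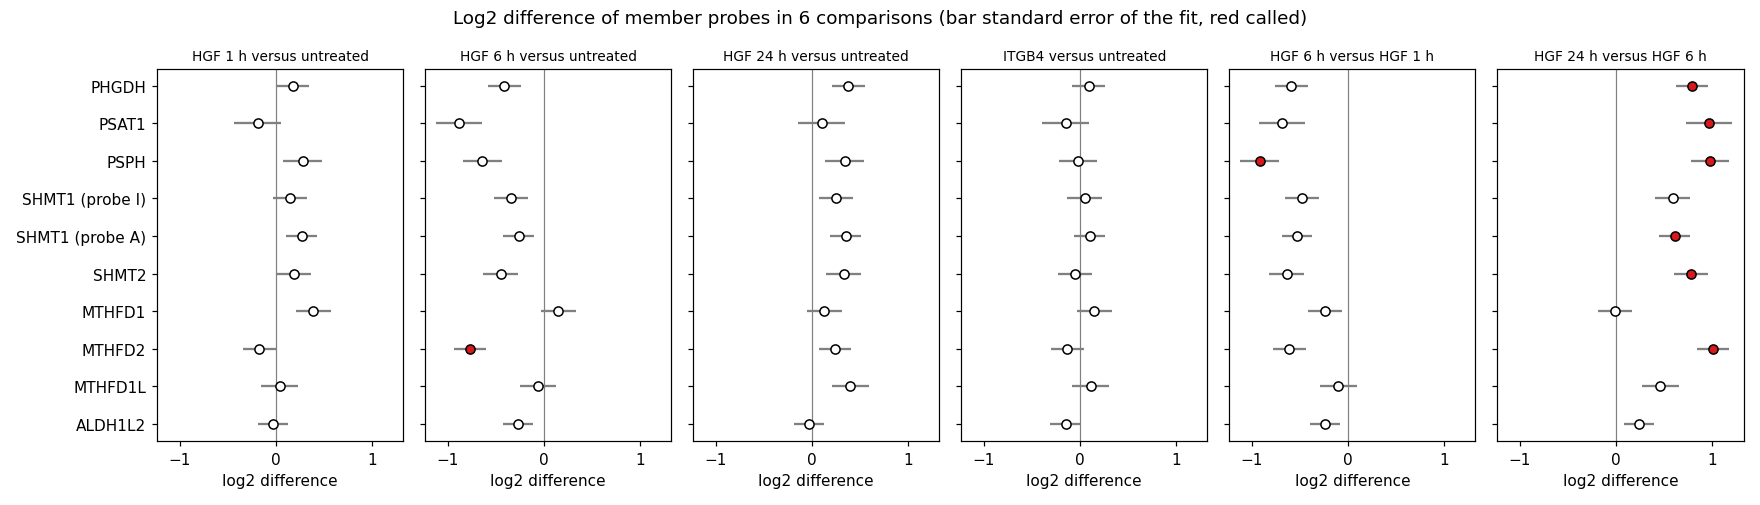
Log2 difference of each member probe in 6 comparisons, with bars for the standard error of the limma fit and red points for calls at an adjusted p under 0.05. The 24 h versus 6 h differences run from -0.01 (MTHFD1) to 1.01 (MTHFD2), and those of ITGB4 against untreated stay between -0.15 and 0.15.

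The number of calls for 24 h relative to 6 h varied with the arrays used. A single probe was called without HGF 6 h replicate 2 and 3 probes without HGF 24 h replicate 1, while the other 8 omissions left 4 to 6. Normexp correction left 2 calls (4.97% of all probes), the values normalised by the authors 3 (7.09%) and an ordinary pooled-variance test 0 (0.763%). Limma gave an unadjusted p under 0.05 for 8 of 10 probes, against 21.3% of all probes. The direction was the same in all 19 alternatives for each of the 6 probes called in the main fit. It could differ only with normexp correction, the authors' values, median scaling or an omitted 6 h or 24 h array. The other alternatives leave this estimate as it is. A further fit took the arrays with lower detection scores for undetected probes as a block, named the array background block here. That split differs from the replicate number only in ITGB4 replicate 1, and what lies behind it is not known. With it 8 member probes were called at 24 h against 6 h, 3 at 6 h against untreated and 7 at 6 h against 1 h. Of all probes 15.4%, 7.6% and 12.1% were called in the same order.

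Against untreated cells, 1 of 10 probes was called at 6 h, MTHFD2, which fell by 0.77 ± 0.17 (1.71-fold lower, adjusted p = 0.033), by 0.70 within replicate 1 and 0.85 within replicate 2. Of all probes 0.935% fell and 1.9% changed in either direction. PSAT1 (-0.88, adjusted p = 0.079) and PSPH (-0.64, adjusted p = 0.12) were not called. Both 6 h arrays lay below both untreated arrays for 7 of 10 probes, against 23.9% of all probes. The member median was -0.37. SHMT2 (-0.45), PHGDH (-0.41), SHMT1 (-0.34 and -0.26) and ALDH1L2 (-0.27) were negative and MTHFD1L (-0.06) and MTHFD1 (0.15) near 0. The MTHFD2 call was lost without any 1 of the 8 arrays of untreated, ITGB4, HGF 1 h or HGF 6 h cells, and leaving out either HGF 24 h array gave 2 calls, MTHFD2 and, just under the threshold, PSAT1.

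At 6 h relative to 1 h PSPH alone was called, of 10 probes, while 2.43% of all probes fell and 4.67% changed in either direction. All 10 probes had a negative difference, and for 9 of 10 both 6 h arrays lay below both 1 h arrays, against 25.9% of all probes. MTHFD2 (-0.61, adjusted p = 0.054), SHMT2 (-0.64, 0.064), PHGDH (-0.59, 0.066) and the brighter SHMT1 probe (-0.53, 0.073) missed the threshold narrowly. The other differences were -0.69 for PSAT1, -0.48 for the dimmer SHMT1 probe, -0.24 for both MTHFD1 and ALDH1L2 and -0.10 for MTHFD1L. The PSPH call was lost when HGF 1 h replicate 1 or either of the 6 h arrays was omitted, and omitting either of the 24 h arrays gave 4 calls. These comparisons and that of 24 h with 6 h share the 6 h arrays and are not independent of each other.

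**Figure D3:**
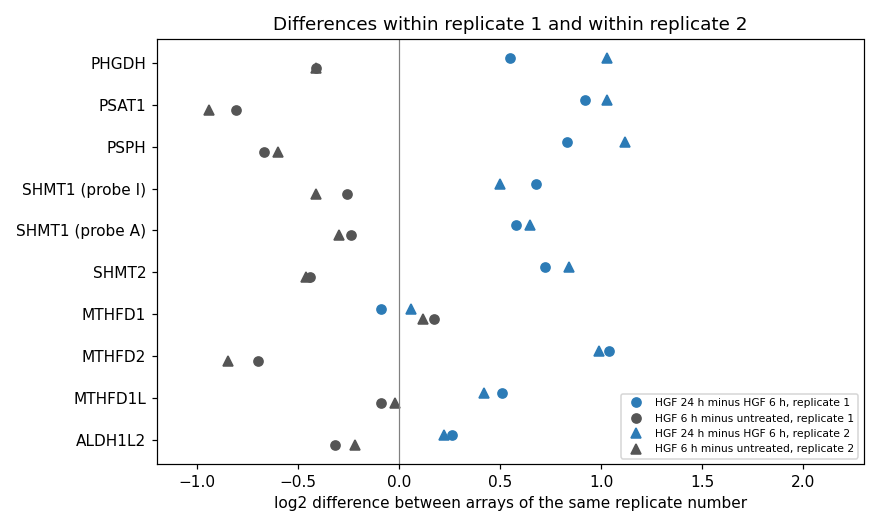
Log2 difference of each member probe within replicate 1 and within replicate 2, for HGF 24 h minus 6 h and for 6 h minus untreated. For 24 h minus 6 h both replicates are positive for 9 of the 10 probes, and MTHFD1 gives -0.08 and 0.06.

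At 1 h of HGF against untreated 0 of 10 probes and 0% of all probes were called, by limma and by the pooled-variance test. At an unadjusted p under 0.05 stood 1 of them, MTHFD1 (0.39 ± 0.18, adjusted p = 0.36), against 13.5% of all probes. The other members ran from -0.19 (PSAT1) to 0.28 (PSPH). At 24 h against untreated 0 of 10 were called, and 0% of all probes, by both tests. There 2 had an unadjusted p under 0.05, PHGDH (0.38) and the brighter SHMT1 probe (0.35), each with an adjusted p of 0.86, and 5.71% of all probes did. Both 24 h arrays nevertheless lay above both untreated arrays for 7 of 10 probes, against 14.9% of all, with a median of 0.29. Among those 7 were MTHFD1L (0.40), PSPH (0.34), SHMT2 (0.33) and MTHFD2 (0.24), and PSAT1 (0.10), MTHFD1 (0.13) and ALDH1L2 (-0.03) overlapped.

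In ITGB4 cells no member stood apart by the test. They differed from untreated cells by -0.15 (PSAT1, ALDH1L2) to 0.15 (MTHFD1), and 0 of 10 probes were called by either test, also at an unadjusted p under 0.05. The ALDH1L2 difference was -0.66 in the values normalised by the authors (adjusted p = 1), where the column of ITGB4 replicate 2 departs from its scanner table. Of all probes 0.00713% were called, a single one, that of ITGB4 itself, and 0.835% had an unadjusted p under 0.05.

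The transcription regulators were counted from a list of 8 measured genes. At 24 h relative to 6 h 3 rose and 1 fell, against 514 that rose and 496 that fell among 10599 genes. At 6 h relative to untreated 1 rose (ATF5, by 1.75) and 3 fell (ATF4 by 1.12, CEBPG by 0.89 and DDIT3 by 0.70). Among all 10599 genes 122 rose and 113 fell there. ATF4, the activator of the amino acid response, had 1018 and 913.3 in ITGB4 cells, 859.1 and 940.8 in untreated cells, 974.5 and 1086.5 after 1 h, 390.2 and 437.1 after 6 h and 1146 and 1194.3 after 24 h, and was lowest at 6 h. ATF4 rose by 1.5 ± 0.16 at 24 h relative to 6 h (adjusted p = 0.00071), with DDIT3 (1.07) and CEBPG (0.96), its partners. ATF5 was the opposite, with 388.9 and 472.2 after 6 h and 102.8 to 159.4 on the other arrays, and fell by 1.86 at 24 h relative to 6 h (adjusted p = 0.00071). MYC gave -0.57 at 6 h against untreated (adjusted p = 0.13) and 0.52 at 24 h against 6 h (adjusted p = 0.11).

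Among 20 measured genes of the amino acid response other than the members, 13 rose and none fell at 24 h relative to 6 h, with a median of 1.03, against 514 that rose and 496 that fell among 10599 genes. AARS1, an aminoacyl-tRNA synthetase, rose by 1.99 ± 0.24 (adjusted p = 0.0011), SESN2, a stress-induced inhibitor of mTORC1, by 1.67, NUPR1, a stress protein, by 1.62 and PCK2, mitochondrial PEP carboxykinase, by 1.60. The members' median of 0.70 over probes was below this median. At 6 h against untreated 7 of these 20 fell and none rose, against 113 that fell and 122 that rose among all genes. Those with the largest falls were CHAC1 (-1.55), CTH (-1.33), SESN2 (-1.32) and HERPUD1 (-1.17).

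Among 28 other measured folate, glycine and serine genes the picture was mixed, with 2 that rose and 3 that fell at 24 h relative to 6 h and a median of 0.08. Among all 10599 genes 514 rose and 496 fell in that comparison, and 122 rose and 113 fell at 6 h against untreated. SARS1 (0.83), the seryl-tRNA synthetase, and SLC1A5 (0.62), a glutamine and neutral amino acid transporter, rose. GLDC (-0.97) and GCSH (-0.95), subunits of the glycine cleavage system, and SFXN1 (-0.86), a mitochondrial serine carrier, fell. GLDC was also the single one called at 6 h against untreated, with 212.1 and 186 after 6 h and 100.1 and 84.4 in untreated cells (1.11 ± 0.17, adjusted p = 0.0095). Untreated replicate 2 and both ITGB4 arrays did not detect it.

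**Figure D4:**
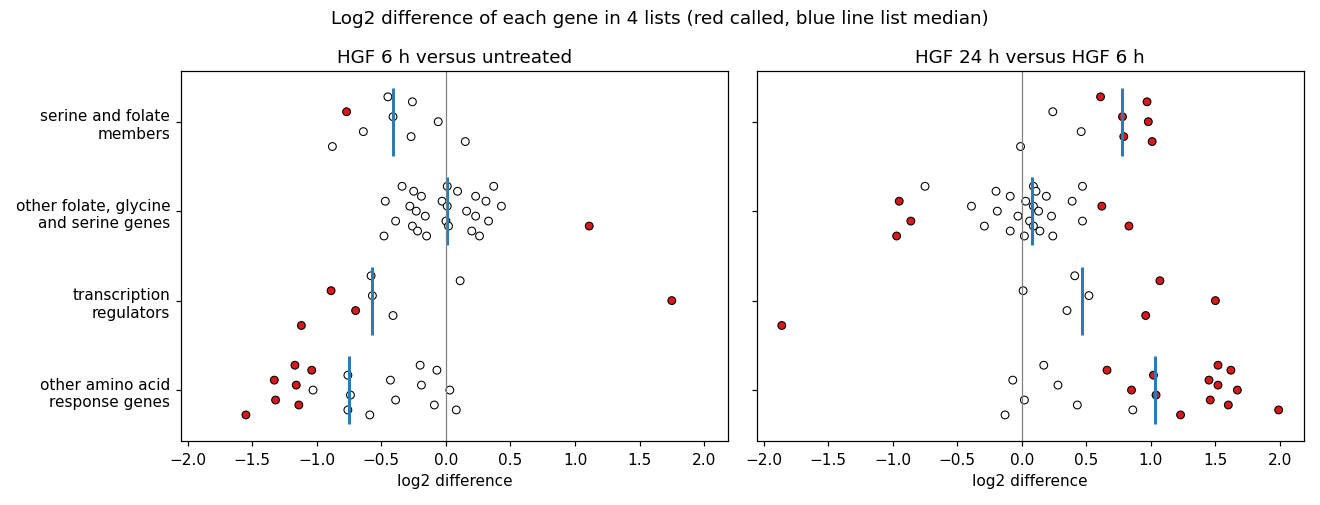
Log2 difference of every measured gene of 4 lists at HGF 6 h versus untreated and at 24 h versus 6 h, with 1 point per gene, red where called, and a blue line at the list median. Most amino acid response genes (median 1.03) lie above 0 at 24 h versus 6 h, and the other folate, glycine and serine genes scatter around 0 (median 0.08).

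The probes most like each called member over the 10 arrays were, by Pearson r among 11466 probes with a symbol, FBXL20 (0.993), B4GAT1 (0.981) and MXD4 (0.969) for PHGDH, and RBMS3 (0.974), LRRC8D (0.955) and ASNS (0.953) for PSAT1. For PSPH they were TEAD2 (0.975), PEX5 (0.971) and HERPUD1 (0.971), for SHMT2 PCK2 (0.969), PSPH (0.959) and DNASE2 (0.955), for the brighter SHMT1 probe RALGAPB (0.983), ZNF212 (0.979) and SMIM29 (0.975), and for MTHFD2 NBR1 (0.973), HMBOX1 (0.970) and KLHDC2 (0.967). These r values describe 10 arrays that share groups. ASNS, PCK2 and HERPUD1 are in the amino acid response list.

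The summed level of the 8 melanocyte markers also moved with the groups, at 23731 to 27106 in untreated cells, 17073 to 18495 at 6 h and 19946 to 23510 at 24 h, and MITF fell by 1.06 at 6 h against untreated (adjusted p = 0.036). The sum over the 7 epithelial markers, 2 of them detected on all arrays, was 864 to 901 in untreated cells, 984 to 1098 at 6 h and 770 to 1060 at 24 h. That over the 8 stromal markers, with 2 detected on all arrays, was 1355 to 1418, 987 to 1061 and 1078 to 1186 in the same order. The 7 immune markers, again with 2 detected on all arrays, summed to 612 to 647, 664 to 733 and 625 to 715. The part of these markers in the members' changes was not tested.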

How the data were processed

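RNA of 10 MDA-MB-435 samples was profiled on Illumina bead arrays, 2 biological duplicates in each of 5 groups taken from the sample labels. Per the file headers the deposited scanner tables hold the intensity of each probe on a linear scale, neither normalised nor background corrected, a detection score and, as a further deposited column, the number of beads (median 26 to 32 an array), and BeadStudio 1.5.1.3 is named in the submitters' processing notes. The authors also deposited a value table of background subtracted, rank-invariant normalised intensities, used as an alternative. Its column for ITGB4 replicate 2 was no straight line of that sample's scanner table (Spearman 0.968). The 24136 probes held 22 controls and 9 lacking an intensity, which left 24105.

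Intensities were quantile normalised and brought to log2 without floor, offset or background correction. A probe was kept at a detection score of 0.99 or more on at least 1 array (14018 probes). The 5 group means were fitted with limma 3.58.1 in R 4.3.3 (moderated two-sided tests, 5 residual and 8.16 prior degrees of freedom), with Benjamini-Hochberg adjustment over the kept probes of each comparison and a threshold of 0.05. The script was tested on simulated data. Array number limits the precision. P-values set each difference against the spread between duplicates, pooled over the 5 groups and moderated with that of the other probes. Alternatives were another background correction, value table, normalization, filters, floor, blocks, test and leaving out each array. Named were all members, up to 4 called genes of each list by size, MYC, ATF4, ATF5 and the 3 most alike probes of each called member. Lists used 1 probe a gene, the brightest. The members and lists were chosen with earlier results of these data known. Promoters and motifs were read from RefSeq tables (GRCh38.p14), and genome positions of the probes were not used here.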

Additional observations from a re-analysis of the deposited data

Results flagged for a closer look

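The contrast of 24 h with 6 h was tested directly, and the shared untreated arrays cancel in it. No untreated arrays of 6 or 24 h were labelled, so a changed HGF effect and time in culture cannot be told apart. The contrast passed for MTHFD2 (log2 difference 1.01), PSPH (0.98), PSAT1 (0.97), PHGDH (0.79), SHMT2 (0.78) and the brighter SHMT1 probe (0.61). That of 6 h with 1 h passed for PSPH (-0.92). Groups of 2 arrays allow no test for outlying samples.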

How the results depend on the processing

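The count of member probes called depended on the setting, and the directions of the calls did not. For 24 h against 6 h (6 called) normexp correction left 2, the value table gave 3 and the pooled-variance test 0, and leaving out single arrays gave 1 to 6. For 6 h against untreated (1 called) normexp, the value table and the pooled-variance test gave 0, the replicate block 3, the array background block 3 and left-out arrays 0 to 2. For 6 h against 1 h (1 called) normexp, the value table, the floor and the pooled-variance test gave 0, median scaling 5, detection on both arrays of a group 4, either block 7 and left-out arrays 0 to 4. A group left with 1 array was assumed to vary like the others. With the replicate block 8 were called at 24 h against 6 h. Deviations of same-numbered arrays from their group means correlated at r = -0.06 to 0.66 over the 10 pairs of groups. With 2 arrays a group, the deviations of replicate 2 mirror those of replicate 1. All 10 arrays matched best an array of their own number, but for this reason that is 1 observation per group and not per array. The main fit did not take the number as pairing, so shared replicate offsets stayed in its residual spread. Replicate 1 lay above replicate 2 in all 5 groups for PSAT1 (log2 0.35 to 0.54), SHMT2 (0.17 to 0.36), MTHFD1L (0.16 to 0.41) and ALDH1L2 (0.06 to 0.29). It lay below in all 5 for the dimmer SHMT1 probe, and the other probes varied in sign. Comparisons of 1 h, 24 h and ITGB4 with untreated kept 0 calls in all 19 alternatives. Of 1140 member differences under the alternatives 1101 kept their sign, and the 39 that did not were differences that were not called. Many of the 1140 could not change sign. The filters, the floor, the pooled-variance test, the replicate block and omitted arrays of groups outside a comparison leave its estimate as it is. At 6 h against untreated all probes split into 136 higher and 131 lower calls, with normexp 18 and 33, median scaling 42 and 204, and with the value table it was 171 and 95, with a median over all probes of 0.17, against 0.01 in the scanner intensities. At 24 h against 6 h the split was 594 and 571, with median scaling 613 and 321 and with the value table it was 403 and 591. At 6 h against 1 h it was 314 and 340, with normexp 68 and 134, median scaling 158 and 528 and the value table giving 272 and 175. Over the alternatives the number of all probes called ran from 0 to 1089 at 6 h against untreated (267), 0 to 1871 at 6 h against 1 h (654) and 107 to 2245 at 24 h against 6 h (1165), each highest with the replicate block. The pooled-variance test gave each lowest count, and the count was also 0 without HGF 6 h replicate 2 at 6 h against untreated and without HGF 1 h replicate 1 at 6 h against 1 h. At 1 h against untreated the replicate block called 427, against 0 without it. The causes were not tested.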
